A study of Homo sapiens with 3 samples.

Results

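The genes described here are the subunits of the transcription factor AP-1 and 3 further immediate early genes: FOS, FOSB, FOSL1, FOSL2, JUN, JUNB, JUND, EGR1, NR4A1 and IER2. They were chosen by name, as a gene family with its companions, and all 10 stand in the deposited table, on 1 row each, among 30866 distinct symbols. They were followed in HCC827, an established line of human non-small cell lung cancer cells that depends on a mutant EGF receptor. The cells carried the ClonTracer library of DNA barcodes and were kept as 1 polyclonal pool, so each group is a mixture of barcoded clones of 1 line. Vehicle cells had 0.1% DMSO for 4 days. The erlotinib-resistant population had 2 µM erlotinib, an EGF receptor kinase inhibitor, for 47 days. The dual-resistant population was grown from the erlotinib-resistant one, with 10 days of 2 µM erlotinib and 0.2 µM crizotinib, which inhibits the MET kinase. RNA was sequenced from 1 library per group, so a difference is one between single libraries, without an error, a test or a p-value. Drug, treatment time and resistance changed together between groups and cannot be told apart, and neither can a change in the make-up of the pool and a change within its cells.

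AP-1 is a dimer of leucine zipper proteins. JUN proteins pair with each other or with FOS proteins, whereas FOS proteins need a JUN partner to bind DNA. Growth factor receptors act on these genes through the ERK, JNK and p38 MAP kinases. ERK phosphorylates ELK1, which sits with SRF on CArG boxes of immediate early promoters, and CREB and its relatives bind CRE sites there. Immediate early genes are switched on without new protein synthesis, and the mRNAs of FOS, FOSB and EGR1 are short-lived. FOSL1 and FOSL2, which encode FRA-1 and FRA-2, come on later, are held up by lasting ERK signalling and lack the strong activation domain of FOS and FOSB.

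The promoters are shown to place the members by the sites through which ERK and CREB signals are known to reach them. RefSeq (GRCh38.p14) held the start of 9 of the 10 members, FOSL1 being the exception. The 250 bases before the start are given for FOS, FOSB and EGR1, which were much lower after erlotinib, and for JUN. They are also given for JUND, which differed least, and for FOSL2, which was called higher in the dual-resistant library only. They lie at chr14:75278578-75278827 (plus strand), chr19:45467746-45467995 (plus strand), chr5:138465229-138465478 (plus strand), chr1:58784048-58784297 (minus strand), chr19:18281623-18281872 (minus strand) and chr2:28392608-28392857 (plus strand). Capitals mark CArG boxes, the CRE TGACGTCA, the CRE half-site TGACG on either strand and TGACATCA, the variant AP-1 site for which the JUN promoter is known; the half-site is part of the full CRE.
FOS: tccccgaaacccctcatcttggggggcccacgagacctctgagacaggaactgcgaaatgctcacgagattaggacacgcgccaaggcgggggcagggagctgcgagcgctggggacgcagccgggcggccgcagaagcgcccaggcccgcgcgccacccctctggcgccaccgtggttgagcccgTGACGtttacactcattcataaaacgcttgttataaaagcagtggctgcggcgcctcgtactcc
FOSB: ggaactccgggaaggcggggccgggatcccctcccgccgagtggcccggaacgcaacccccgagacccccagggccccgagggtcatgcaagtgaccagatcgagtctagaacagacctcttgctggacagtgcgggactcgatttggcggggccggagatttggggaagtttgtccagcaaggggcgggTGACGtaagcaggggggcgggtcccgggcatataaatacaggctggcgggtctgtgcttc
EGR1: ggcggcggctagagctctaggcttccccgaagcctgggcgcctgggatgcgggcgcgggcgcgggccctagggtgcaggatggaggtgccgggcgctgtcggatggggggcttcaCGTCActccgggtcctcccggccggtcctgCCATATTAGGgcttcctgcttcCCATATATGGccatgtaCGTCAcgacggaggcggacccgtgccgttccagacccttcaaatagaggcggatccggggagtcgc
JUN: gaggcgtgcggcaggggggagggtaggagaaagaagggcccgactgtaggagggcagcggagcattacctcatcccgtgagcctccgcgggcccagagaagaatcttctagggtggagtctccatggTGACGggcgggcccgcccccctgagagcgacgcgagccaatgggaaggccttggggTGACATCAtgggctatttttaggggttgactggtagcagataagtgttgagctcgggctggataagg
JUND: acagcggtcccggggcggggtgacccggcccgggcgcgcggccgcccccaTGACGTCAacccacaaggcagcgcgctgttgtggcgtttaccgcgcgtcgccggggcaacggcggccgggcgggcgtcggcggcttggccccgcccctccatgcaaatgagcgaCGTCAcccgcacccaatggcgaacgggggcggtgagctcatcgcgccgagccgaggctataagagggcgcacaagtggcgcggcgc
FOSL2: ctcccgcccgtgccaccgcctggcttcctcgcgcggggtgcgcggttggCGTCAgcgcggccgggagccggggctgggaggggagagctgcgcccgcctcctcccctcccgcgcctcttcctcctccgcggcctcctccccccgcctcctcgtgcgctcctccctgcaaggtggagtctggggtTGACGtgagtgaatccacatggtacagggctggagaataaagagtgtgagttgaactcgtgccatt

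Only EGR1 among the 9 held CArG boxes in this window, a pair of them, at 105 to 96 and 83 to 74 bases before the start. A CArG box stood in 1.16% of the 35116 RefSeq promoter windows of that length. The full CRE was found in JUND alone, at 200 to 193 bases, and in 1.65% of all windows. The half-site TGACG, searched after the values were seen, stood in 8 of 9 members, all but NR4A1, and in 21.2% of all windows. In FOS it lay 64 to 60 bases and in FOSB 60 to 56 bases before the start. TGACATCA, also searched afterwards, was found in JUN alone, 67 to 60 bases before the start, and in 2.37% of windows. As this site is known from the JUN promoter, its presence there was fixed in advance and is no finding. The consensus AP-1 site TGACTCA was in no member's window, against 4.20% of all. The EGR site GCGNGGGCG was in EGR1 only (8.41% of all), and the SP1 site GGGCGG in 7 of 9 (42.6% of all). Both strands were searched, a match is a description of the letters only, and sites further out, such as those beyond 250 bases, were not searched.

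All levels below are FPKM, fragment counts scaled to the length of the transcript and the depth of the library, as the authors deposited them, so levels of different genes can be set side by side per length. Depth is known only by estimate: 1 FPKM in a transcript of 1 kb stood on about 68.6 fragments for vehicle, 47.4 for erlotinib-resistant and 43.1 for dual-resistant cells. On that basis even the lowest member values, FOSB at 0.602 FPKM and NR4A1 at 0.753 FPKM in the erlotinib-resistant library, stood on about 108 and 125 fragments. Differences are log2 differences of FPKM + 1, which understate those of low genes, and a gene is called higher or lower at a difference of at least 1, which is a fold of 2. The comparisons covered every gene that reached 1 FPKM in any library. All 10 members passed, each with at least 1 FPKM in at least 2 libraries. The FPKM sums were 596084, 528920 and 494817. Scaling the libraries to the same sum moved the median of all genes by 0.14 for erlotinib-resistant against vehicle, 0.08 for dual-resistant against erlotinib-resistant and 0.24 for dual-resistant against vehicle. It moved the share of higher genes among all calls from 38.7% to 53.7%, from 58.4% to 64.2% and from 51.3% to 66.0%. No member's difference changed sign under the scalings tried. A filter or another pseudocount cannot turn the sign of a difference.

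Epithelial identity was checked on 6 markers, which summed to 5032, 5200.2 and 2292 FPKM in the vehicle, erlotinib-resistant and dual-resistant libraries. In the dual-resistant library 4 of the 6 were lower than in the erlotinib-resistant library, among them EPCAM and CDH1, at 41.1 and 22.8 FPKM. Of all genes, 7.22% were lower in that comparison. The lung lineage markers NKX2-1, NAPSA and SFTPB summed to 204, 123 and 38.5 FPKM. Markers of other cells were low: 4 leukocyte markers summed to 4.12, 0.734 and 0.625 FPKM, nearly all of it CD14 and with CD3E at 0 throughout, 3 endothelial markers to at most 0.636, and 4 fibroblast markers to 0.0505, 0.0725 and 2.55, with PDGFRA at 0 throughout. The last sum came from PDGFRB, listed at 0 in the other libraries and at 1.01 FPKM in dual-resistant cells, and LUM, at 1.52 FPKM there after 0.0725. Both were called higher against either library, beside 10.1% of all genes against the erlotinib-resistant library and 11.0% against vehicle. PDGFRB and LUM passed the filter only through the dual-resistant library, so neither could have been lower there. The call of PDGFRB, at a log2 difference of 1.01, rests on values listed at 0, which can be failed estimates. The part of the lower epithelial markers and of these 2 fibroblast markers in the members' values was not tested.

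**Figure D1:**
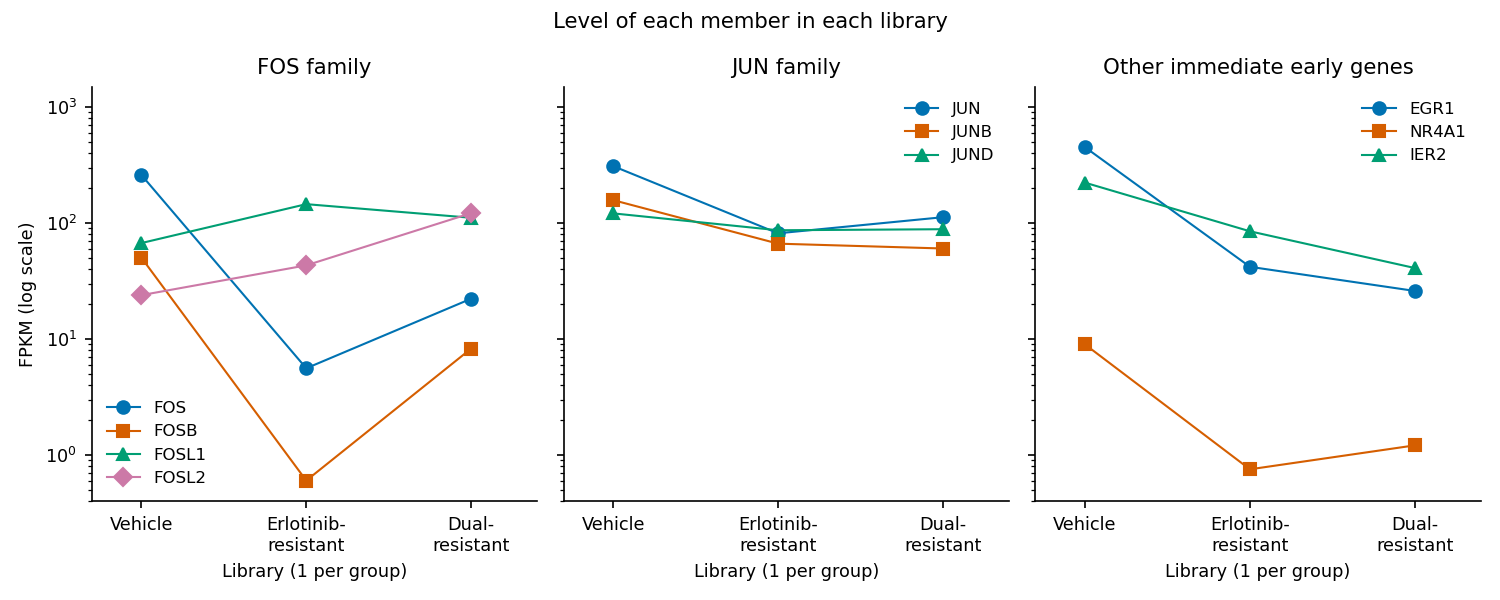
Level of each member in the 3 libraries, in FPKM on a log axis. Each point is 1 library and lines only join the points of a gene. FOS, FOSB, EGR1 and NR4A1 are far lower in both resistant libraries than in vehicle, and JUND lies between 86.8 and 121 FPKM. FOSL2 is higher in each resistant library than in vehicle, but after erlotinib by a log2 difference of 0.83, which is not a call.

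FOS and FOSB stood far lower after erlotinib, and FOSL1 took first place among the FOS genes. In the erlotinib-resistant library 7 of the 10 members were lower than in vehicle and 1, FOSL1, was higher, while 6.03% of all 13381 genes compared were lower and 3.81% higher. The members' median log2 difference was -1.65, beside 0.00 for all genes. The lower members were FOS, FOSB, JUN, JUNB, EGR1, NR4A1 and IER2. By a difference of at least 2, a fold of 4, the members FOS, FOSB, EGR1 and NR4A1 were lower (4 of 10, beside 1.59% of all genes) and none was higher (0.433%). With libraries scaled to the same sum, 7 members were again lower and 1 higher, beside 4.96% and 5.76% of all genes. In bulk RNA, fewer cells that express a gene and less of its RNA per cell cannot be told apart.

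FOS (Entrez ID 2353, chromosome 14, 75745481 to 75748937, GRCh37), which encodes the prototype partner of JUN, stood at 261, 5.60 and 22.3 FPKM in vehicle, erlotinib-resistant and dual-resistant cells. The vehicle library was thus far above both others, and the erlotinib-resistant library was the lowest. The log2 difference was -5.31 after erlotinib, the 5th lowest of 13381 genes, and 1.82 between the dual-resistant and erlotinib-resistant libraries, so that the dual-resistant library kept a difference of -3.49 to vehicle. Among the genes that reached 1 FPKM in a library, FOS lay above 97.6% in vehicle, 27.4% after erlotinib and 68.9% in the dual-resistant cells.

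FOSB (Entrez ID 2354, chromosome 19, 45971253 to 45978437), the closest relative of FOS, stood at 50.5, 0.602 and 8.29 FPKM in the vehicle, erlotinib-resistant and dual-resistant libraries. It followed the order of FOS, with differences of -5.01 after erlotinib (the 9th lowest), 2.54 from the erlotinib-resistant to the dual-resistant library and -2.47 between the dual-resistant library and vehicle. Its size depended on the pseudocount: the difference after erlotinib was -3.31 with 5 added and -6.17 with 0.1 added. In the table FOSB overlaps ERCC1, a DNA repair gene at 20.6, 26.3 and 20.4 FPKM. The strandedness of the libraries is not given in the sources used here, so reads of the shared stretch cannot be assigned to either gene.

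FOSL1 (Entrez ID 8061, chromosome 11, 65659692 to 65667997), which encodes FRA-1, stood at 67.3, 146 and 111 FPKM in the same order of libraries. It was the one member called higher after erlotinib, by a log2 difference of 1.10, and its differences of -0.39 in the next step and 0.72 to vehicle lay within the limit. The gene CCDC85B ends 585 bases from it in the table and stood at 80.1, 178 and 136 FPKM, the same order; their reads were not told apart by strand.

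FOSL2 (Entrez ID 2355, chromosome 2, 28615669 to 28639445), which encodes FRA-2, stood at 23.9, 43.2 and 122 FPKM. It was the lowest of the FOS family in vehicle and the highest in the dual-resistant library. Its difference after erlotinib was 0.83, within the limit, and it stayed just short of it with the libraries scaled to the same sum. Its difference of 1.48 in the next step and of 2.30 between the dual-resistant library and vehicle were both calls, the last the 291st highest of 13378 genes. FOSL2 overlaps the entry uc002rlz, which stood at 0.148, 0.515 and 1.18 FPKM in vehicle, erlotinib-resistant and dual-resistant cells. Reads of that shared stretch cannot be assigned to either one.

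**Figure D2:**
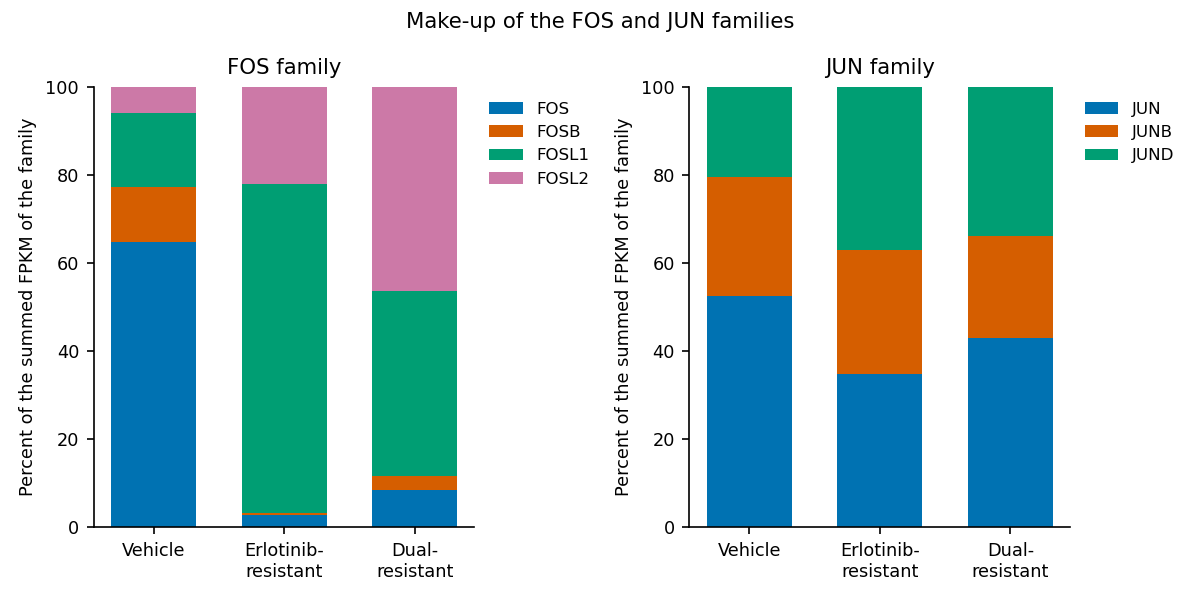
Each subunit as a percentage of the summed FPKM of its family, for the 4 FOS genes and the 3 JUN genes, 1 bar per library. FOS and FOSB fill 77.3% of the FOS bar in vehicle, 3.18% after erlotinib and 11.6% after both drugs, while the JUN bars change less.

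Shares within a family do not depend on how a library is scaled. FOS made up 64.8% of the FOS family's FPKM in vehicle, 2.87% after erlotinib and 8.46% after both drugs. FOSL1 made up 16.7%, 74.7% and 42.2%, and FOSL2 5.94%, 22.1% and 46.2%. The leading FOS gene was therefore FOS in vehicle, FOSL1 after erlotinib, and FOSL2 with FOSL1 close behind in the dual-resistant library, where their ratio was 1.10. The ratio of FOS to FOSL1 was 3.88 in vehicle, whereas FOSL1 stood at 26.0 times FOS in the erlotinib-resistant cells and 4.99 times FOS in the dual-resistant cells. The family as a whole summed to 402, 195 and 264 FPKM, and FOSL1 with FOSL2 to 91.2, 189 and 233.

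No gene of the JUN family, whose members are encoded by 1 exon each, differed as much as FOS or FOSB in any comparison. The summed FPKM of the JUN family was nevertheless lower in both resistant libraries than in vehicle. JUN (Entrez ID 3725, chromosome 1, 59246463 to 59249785), the main JNK target of the family, stood at 310.3, 81.7 and 112 FPKM in vehicle, erlotinib-resistant and dual-resistant cells. Vehicle was above both resistant libraries, by log2 differences of 1.91 and 1.46, and the resistant libraries differed by 0.46, within the limit. JUNB (Entrez ID 3726, chromosome 19, 12902310 to 12904125), often a weaker activator than JUN, stood at 158, 66.5 and 60.4 FPKM. Its differences to vehicle were -1.24 and -1.37, and the resistant libraries lay within 0.14 of each other. JUND (Entrez ID 3727, chromosome 19, 18390563 to 18392432), the subunit that most cells express steadily, stood at 121, 86.8 and 88.6 FPKM. It was within the limit in every comparison, at -0.48, 0.03 and -0.45, and lay above 92.5% to 94.5% of the expressed genes in each library.

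JUN held 52.6% of the JUN family's FPKM in vehicle, 34.8% after erlotinib and 43.0% in the dual-resistant library. JUND held 20.6%, 36.9% and 33.9%, and led the family in the erlotinib-resistant library by a ratio of 1.06 over JUN. JUNB kept between 23.1% and 28.3%. The family summed to 589.5, 235 and 261 FPKM, so the FOS family stood at 0.683, 0.831 and 1.01 times the JUN family.

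Among the other immediate early members, EGR1 (Entrez ID 1958, chromosome 5, 137801181 to 137805004), a zinc finger factor that depends on ERK, was the highest of all 10 in vehicle. It stood at 452 FPKM there, at 42.0 after erlotinib and at 26.0 after both drugs. Unlike FOS it was not higher in the dual-resistant than in the erlotinib-resistant library: that difference was -0.67, within the limit, after -3.40 in the first step. Against vehicle the dual-resistant library differed by -4.07, the 61st lowest of 13378 genes. IER2 (Entrez ID 9592, chromosome 19, 13261282 to 13265718), a short nuclear protein induced with FOS, stood at 223, 85.0 and 41.0 FPKM, lower at each step, by -1.38 and then by -1.04. The second of these calls was lost at -0.94 with libraries scaled to the same sum and at -0.97 with 5 added in place of 1. NR4A1 (Entrez ID 3164, chromosome 12, 52416616 to 52453291), an orphan nuclear receptor, was the lowest member in vehicle and in the dual-resistant library. It stood at 9.00, 0.753 and 1.21 FPKM, with differences of -2.51, 0.34 and -2.18. With 5 added in place of 1, the differences to vehicle were -1.28 and -1.17, still calls.

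**Figure D3:**
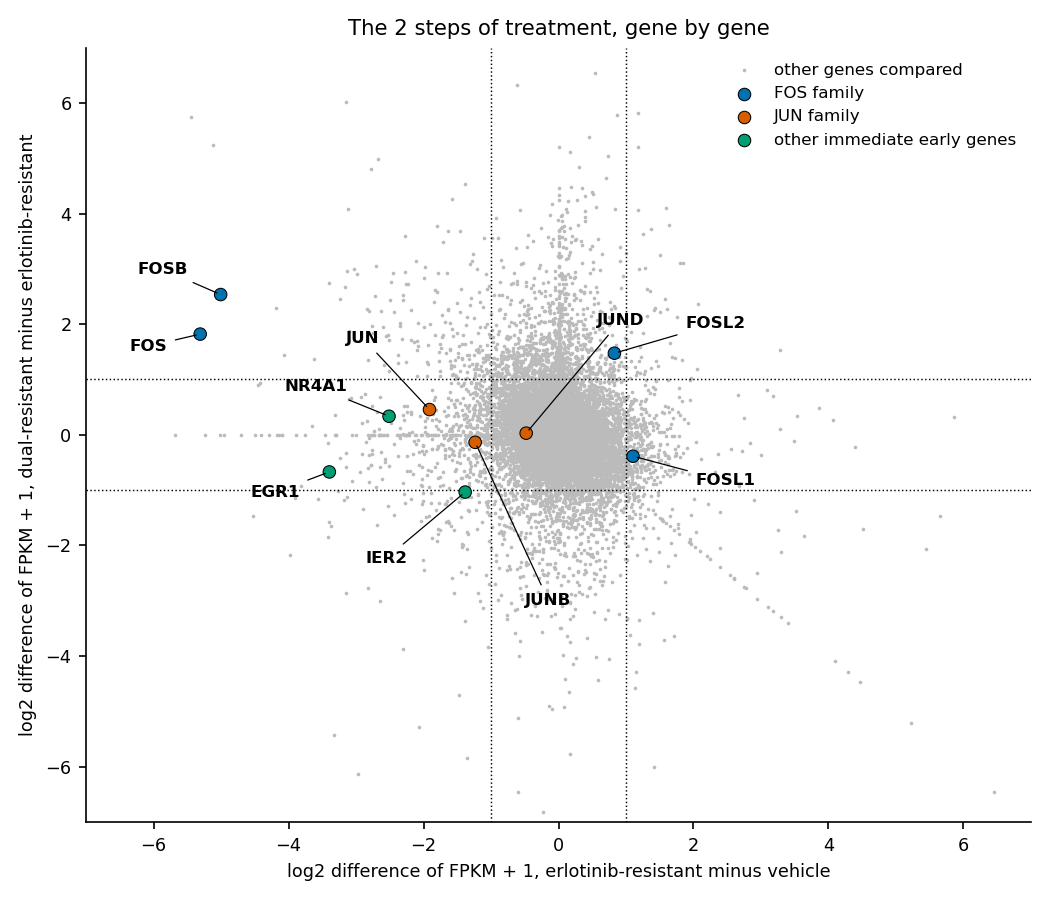
Log2 differences of FPKM + 1 for the first step (x axis, erlotinib-resistant minus vehicle) and the second (y axis, dual-resistant minus erlotinib-resistant), with 1 grey point per gene, the 10 members named and dotted lines at the limit of 1. Both axes use the erlotinib-resistant library; 7 genes lie outside the axes. FOS and FOSB lie at the far left above the upper line, EGR1 and IER2 at the left below 0.

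In the second step fewer members were called, and the FOS genes led. Between the dual-resistant and erlotinib-resistant libraries 3 members were higher, FOS, FOSB and FOSL2, and 1, IER2, was lower, while 10.1% of all 13385 genes were higher and 7.22% lower. The median of the members was 0.18, beside -0.03 for all genes. All 3 JUN genes, FOSL1, EGR1 and NR4A1 lay within the limit. By a difference of at least 2, FOSB alone was higher (2.92% of all genes were) and no member lower (1.88%). With libraries scaled to the same sum the counts were 3 higher and 0 lower, beside 11.7% and 6.51%. The libraries of the first step and of the second share the erlotinib-resistant library, so a value that was low there by itself would be lower in the first and higher in the second.

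Against vehicle, the dual-resistant library had 7 members lower and 1 higher, FOSL2, while 10.4% of all 13378 genes were lower and 11.0% higher. The members' median was -1.82, beside -0.01. EGR1, at a fold of 16.8, and FOS, at 11.2, were the lowest of the members, and FOSB, IER2 and NR4A1 lay between folds of 4.52 and 5.55. FOSL1 and JUND were within the limit. By a difference of at least 2, those 5 were lower and FOSL2 higher, beside 3.50% and 3.17% of all genes. With libraries scaled to the same sum the counts were again 7 lower and 1 higher, beside 8.05% and 15.6%.

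The order of the 10 members by level differed between libraries. In vehicle it was EGR1, JUN, FOS, IER2, JUNB, JUND, FOSL1, FOSB, FOSL2 and NR4A1. In the erlotinib-resistant library FOSL1 stood first, followed by JUND, IER2, JUN and JUNB within 66.5 to 86.8 FPKM, then FOSL2, EGR1, FOS, NR4A1 and FOSB. In the dual-resistant library FOSL2, JUN and FOSL1 led, between 111 and 122 FPKM. With 1 library per group it cannot be said which neighbours in these orders differ beyond their spread.

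**Figure D4:**
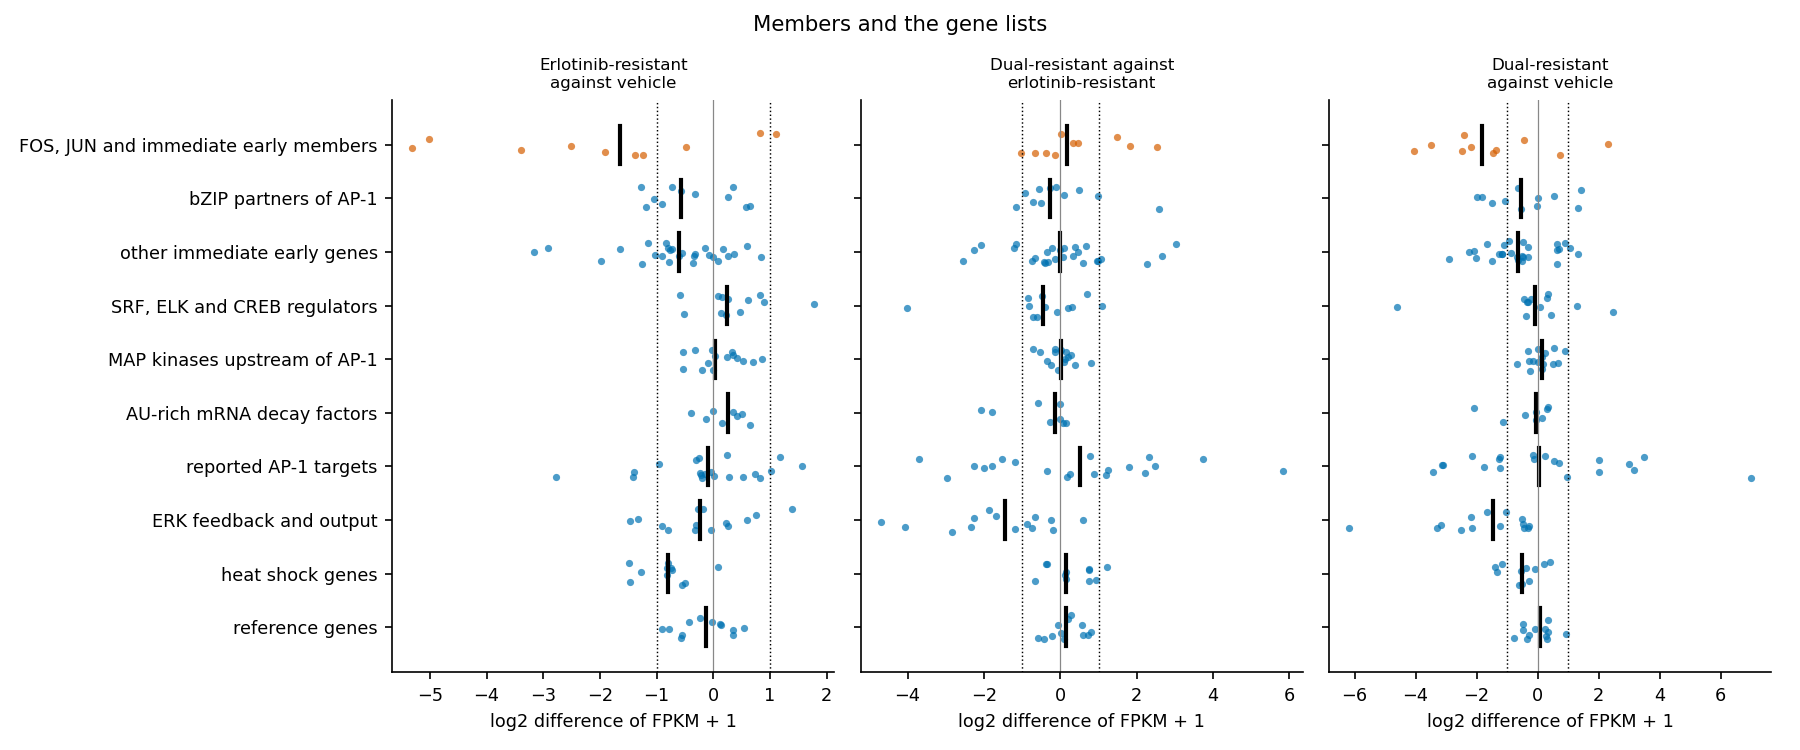
Log2 differences of FPKM + 1 in the 3 comparisons for the 10 members (top row, orange) and 9 gene lists (blue), 1 point per gene, with a black bar at the median and dotted lines at the limit of 1. The members' median lies furthest to the left in both comparisons with vehicle, and the ERK list's in the second step. NAB2 and SPRR1B, listed at 0 in the dual-resistant library, are drawn with that 0 as their FPKM. Their points therefore lie far to the left of the limit in the comparisons with that library.

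The partners and the other genes of the pathway were described with lists, some of which share genes (ATF3, MAFF, SRF, ZFP36, IER3, PHLDA1 and CCND1 stand on more than 1). Of all genes, 3.81% were higher and 6.03% lower after erlotinib, and 10.1% and 7.22% in the second step. Between the dual-resistant library and vehicle 11.0% were higher and 10.4% lower. These shares belong beside the counts of every list. Of the leucine zipper partners of AP-1, 11 of 12 passed the filter, and 3 of these, BATF2 and MAF among them, stood lower after erlotinib while none stood higher (median -0.58); with a pseudocount of 5 none stood lower either. ATF3, a stress-induced partner of JUN, stood at 53.9, 32.1 and 34.3 FPKM, within the limit throughout. MAF, which also forms homodimers, stood at 1.83, 0.246 and 6.50 FPKM and was higher in the second step, when MAFF was lower, at 7.50 against 18.1 FPKM. Against vehicle the dual-resistant library had MAF and the small MAF protein gene MAFK higher, the latter at 54.9 against 21.3 FPKM, and BATF2, BATF3, JDP2 and MAFF lower.

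Of 30 other immediate early genes, 27 passed the filter. After erlotinib 7 were lower and 0 higher (median -0.61), beside 6.03% and 3.81% of all genes. Scaling to the same sum made these counts 6 and 1, without IER5 and with MYC as the higher one. With a pseudocount of 5 the 7 lower genes became 4, without EGR2, IER5 and KLF2. The lower ones were EGR2, IER5, KLF2, DUSP1, CTGF, SGK1 and RHOB. CTGF, a matrix-associated growth factor gene, stood at 58.8, 5.68 and 41.5 FPKM in vehicle, erlotinib-resistant and dual-resistant cells, and RHOB, a small GTPase gene, at 60.8, 14.7 and 127. DUSP1, a phosphatase of the MAP kinases, stood at 105, 32.8 and 162 FPKM. These 3 were thus lowest in the erlotinib-resistant library, as FOS and FOSB were. SGK1, a kinase gene, stood at 181, 23.0 and 37.4 FPKM. In the second step 4 of the 27 were higher (DUSP1, CYR61, CTGF and RHOB) and 5 lower (KLF4, DUSP2, ZFP36, MAFF and PHLDA1). The shares of all genes were 10.1% and 7.22%. The median of the list was -0.02, and with a pseudocount of 5 the lower ones were 3. Against vehicle the dual-resistant library had 2 higher and 10 lower, beside 11.0% and 10.4% of all genes. Among the lower, KLF4 stood at 4.55 against 40.4 FPKM and DUSP2 at 1.28 against 8.33. ZFP36, whose protein speeds the decay of AU-rich mRNAs, stood at 9.34 against 42.9. The other EGR genes were low: EGR2 stood at 1.64, 0.188 and 0.170 FPKM, and EGR3 and EGR4 did not reach 1 FPKM.

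Genes of ERK feedback and output were called more often in the second step than in the first, and so were all genes. After erlotinib 1 of 14, ETV1, was higher (0 with a pseudocount of 5) and 2, DUSP6 and SPRY1, lower (median -0.23). Of all genes 3.81% were higher and 6.03% lower. In the second step 8 of 14 were lower and 0 higher (median -1.44), beside 7.22% and 10.1% of all genes. Against vehicle the dual-resistant library had 9 of 14 lower and 0 higher (median -1.455), beside 10.4% and 11.0% of all genes. With libraries scaled to the same sum, 7 were lower against vehicle. DUSP6, an ERK phosphatase, stood at 178, 63.6 and 1.48 FPKM and DUSP5 at 60.5, 103 and 5.22. ETV4 and ETV5, ETS factors that follow ERK, stood at 2.08 and 2.88 FPKM in the dual-resistant cells against 21.3 and 18.5 in the erlotinib-resistant cells. Between the resistant libraries FOS and FOSB were higher while DUSP5 and DUSP6 were lower. DUSP6 had the order of EGR1, IER2 and JUNB, highest in vehicle and lowest in the dual-resistant cells, which KLF4 and DUSP2 had too.

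The MAP kinases lay within the limit, while some factors that act at the promoters or on the mRNAs did not. None of 15 genes of MAP kinases, their activators and RPS6KA kinases was called in any comparison, with medians of 0.02, 0.02 and 0.15. With the libraries scaled to the same sum, 1, the kinase gene RPS6KA5, passed the limit in each comparison with vehicle, and 1 gene also did with a pseudocount of 0.1. MAPK8, the gene of JNK1, stood at 8.60, 12.9 and 14.3 FPKM. Of 12 regulators at immediate early promoters, ETS1 alone was higher after erlotinib, at 56.2 against 15.7 FPKM (with CREB1 when scaled to the same sum), and none was lower; ETS1 stood at 91.4 in the dual-resistant library. SRF stood at 22.7, 24.1 and 17.8 FPKM and ELK1 at 17.0, 11.5 and 13.3. MKL1, a co-activator of SRF, was higher in the dual-resistant library, at 19.6 FPKM against 8.73 and 7.37, a call lost with a pseudocount of 5. NAB2, a co-repressor of EGR1, stood at 23.2 and 15.1 FPKM and was listed at 0 in the dual-resistant library, which can be a failed estimate, so no fold is given. Of 8 genes of AU-rich mRNA decay, none was called in the first step, and ZFP36 and ZFP36L2 were lower in the second, the latter at 17.5 against 63.6 FPKM.

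Reported AP-1 targets went both ways. Of the 20 of 23 that passed the filter, 3 were higher and 3 lower after erlotinib, beside 3.81% and 6.03% of all genes. In the second step 8 were higher and 7 lower, beside 10.1% and 7.22%. Between the dual-resistant library and vehicle 6 were higher and 8 lower, beside 11.0% and 10.4%. SPRR1B, listed at 0 in the dual-resistant library, which can be a failed estimate, is among the lower genes of both these comparisons. Without it 6 were lower in the second step. The medians were -0.10, 0.51 and 0.06. PLAU, the urokinase gene, stood at 203, 411 and 85.0 FPKM in the 3 libraries. HBEGF, an EGF receptor ligand, stood at 1.80, 1.35 and 30.2 FPKM, and CD44, an adhesion receptor, at 23.0, 41.5 and 211. HMGA1, a chromatin protein gene, stood at 414, 1230.2 and 92.8 FPKM and VEGFA at 247, 91.6 and 22.2. With a pseudocount of 5, the 8 higher targets of the second step became 5.

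Heat shock genes, which handling of cells can raise together with immediate early genes, were looked at too. After erlotinib 3 of the 11 compared were lower and 0 higher (median -0.81), beside 6.03% and 3.81% of all genes. The 12 genes of the list summed to 2875, 1662 and 2469 FPKM. HSPA8 stood at 845, 299 and 575 FPKM and HSPA1B at 59.1, 20.6 and 23.0, the latter uncertain because HSPA1A is a near-identical copy. In the second step 1 of 11 was higher, HSPB1, beside 10.1% of all genes. Against vehicle 3 were lower in the dual-resistant library, beside 10.4% of all genes. The part of handling in the members' values was not tested. Of 12 reference genes none was called in any comparison, with medians of -0.13, 0.15 and 0.07. The largest difference among them was 0.94, that of SDHA between the dual-resistant and vehicle libraries, and SDHA passed the limit there when libraries were scaled to the same sum.

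Genes with the most similar pattern were sought by the distance between pairs of log2 differences (first and second step), over 10053 genes that reached 5 FPKM in some library and were not listed at 0. Nearest to FOS was FOSB, at a distance of 0.78. Next were GPNMB at 1.21, the interferon-induced genes MX2 and IFIT1, at 1.25 and 1.26, and then the chemokine gene CXCL1. IFIT1 stood at 110.5, 4.20 and 8.93 FPKM. Nearest to FOSL1 were CCDC85B, PPP1R9A, PXN, ZNF496 and DDX21, all within 0.07, and nearest to JUN were GHDC, SIPA1L2, IFITM3, IFI35 and LYPD6B, within 0.19. Likeness over 3 libraries is a description of these values only.

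**Figure D5:**
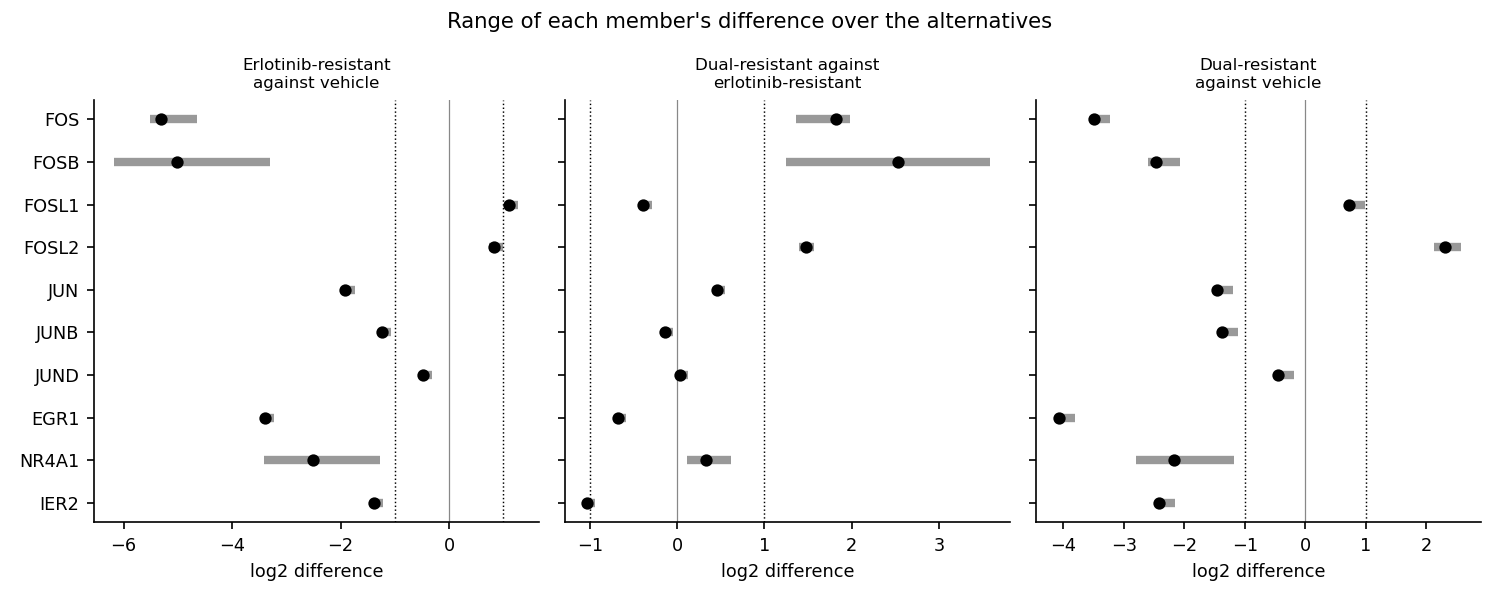
Log2 difference of each member in the 3 comparisons as reported (black point) and its range over the other pseudocounts, scalings, filters and row handling (grey bar), with dotted lines at the limit of 1. FOSB and NR4A1 have the widest bars after erlotinib, from -6.17 to -3.31 and from -3.41 to -1.28. Only the scalings could take a bar across 0, and no bar crosses it.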

How the data were processed

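RNA was sequenced from 3 groups of 1 library each, assigned by sample title. The values are FPKM computed by the authors. Reads were processed with TopHat 1.3 and Cufflinks 1.3 on GRCh37, per the submitters' processing notes. For gene set, strandedness and settings the sources used here give nothing. Table starts were read as 0-based and are printed 1-based: of 58 rows that end where their RefSeq gene ends, 21 start 1 base before it and 3 at the same base.

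From the deposited FPKM, rows of a symbol were summed, cells missing in a library were left out, and log2 differences of FPKM + 1 were computed with Python 3.11.15 and pandas 2.3.3 for the 13425 genes that reached 1 FPKM in any library. A gene was called by size, at a log2 difference of at least 1. With no replicates no test was made. The calculation was checked on simulated data. The worth of 1 fragment was taken as percentile 1 of FPKM times length over single-exon coding genes of 1 to 5 kb, and fragments behind a member used its longest GENCODE 29 coding transcript. Alternatives were pseudocounts of 0.1 and 5, scaling to the same sum or median, no filter or 5 FPKM, the highest row of a symbol, a limit of 2 and, added after the values were seen, leaving out genes listed at 0. Named were all 10 members, for each list up to 4 genes with the largest differences, and the 5 genes nearest in pattern to FOS, FOSL1 and JUN; other genes of the lists were named after their values were seen. Some genes of the lists are counted but not reported here by name. The members, lists and alternatives were chosen with earlier results of these data known. Promoter windows came from RefSeq (GRCh38.p14), and protein sequences were not used here.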

Additional observations from a re-analysis of the deposited data

How the results depend on the processing

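The filters, the highest row of a symbol and leaving out genes listed at 0 could not change a member's value. Each member has 1 row, passes every filter and is listed at 0 in no library. Only the pseudocounts and scalings could move a call, and a pseudocount cannot turn a sign. Of 240 recomputed differences of members, many thus fixed in advance, 238 kept their call, 2 lost it and none turned. The 2 were the lower IER2 in the dual-resistant against the erlotinib-resistant library, so the count of lower members in that comparison went from 1 to 0 with a pseudocount of 5 and with libraries scaled to the same sum. With a limit of 2 on the log2 scale, the members called after erlotinib numbered 0 higher and 4 lower in place of 1 and 7, and those in the second step 1 higher and 0 lower in place of 3 and 1, as fewer genes pass a larger limit by construction. The make-up of the FOS and JUN families was the same with the highest row of a symbol, since each member has 1 row. Of 486 recomputed counts of the other lists, 439 stayed within 1.5 times and 47 did not, most of them counts under 10 with another limit, pseudocount or scaling.

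No paired analysis was possible because each group has 1 library, and leaving a library out would end a comparison. Depth limits the lowest values most: FOSB and NR4A1 in the erlotinib-resistant library rest on about 108 and 125 fragments, an estimate that covers counting only. Without replicates, the spread between cultures is unknown.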

Other observations

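The neighbours of the members on the chromosomes were looked at after the values were seen. The genes nearest to each member on either side that reached 1 FPKM in some library numbered 20, of which 19 could be compared with vehicle, PPP1CB next to FOSL2 having no vehicle value. After erlotinib 2 of the 19 were higher and 0 lower, and both flank FOSL1 (3.81% of all genes were higher and 6.03% lower). In the second step 1 of 20, RTN2, was higher and 2, TMED10 and HOOK2, lower, beside 10.1% and 7.22%. Between the dual-resistant library and vehicle 1 of 19, C11orf68, was higher and 4, TMED10, JDP2, HOOK2 and C12orf44, lower, beside 11.0% and 10.4%. CCDC85B, 0.585 kb from FOSL1, stood at 80.1, 178 and 136 FPKM in the 3 libraries. On the other side, 16.3 kb away, C11orf68 stood at 18.9, 44.8 and 50.9 FPKM. Beyond them, FIBP at 3.68 kb stood at 69.0, 67.6 and 54.4 FPKM, DRAP1 at 18.7 kb at 86.7, 134 and 131, and CFL1, an actin-severing protein gene, at 660, 378 and 757. Of the 10 nearest genes, 5 on each side, 2 were higher after erlotinib and none lower, with a median of 0.04. Both flanking genes of FOS, TMED10 and JDP2, were within the limit after erlotinib, at -0.10 and -0.58, and lower after both drugs, at -1.23 and -1.07. Next to FOSB, EGR1 and JUN the flanking genes lay between -0.47 and 0.51 after erlotinib.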
